A study of Mus musculus with 12 samples.

Results

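Sprouty, Spred and Dusp genes code for negative feedback on ERK signaling, and 10 of them were followed here: *Spry1*, *Spry2*, *Spry4*, *Spred1*, *Spred2*, *Spred3*, *Dusp1*, *Dusp4*, *Dusp5* and *Dusp6*. They were picked as named members of these families, and all 10 were found by exact gene name among the 55335 genes of the count files. All 10 passed the filter on low counts that left 22635 genes for testing.

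The libraries were made from muscle stem cells (MuSCs), the Pax7-expressing cells that regenerate skeletal muscle, in 4 groups of 3. The cells of every group were sorted by ZsGreen fluorescence from hindlimb muscle of transgenic Pax7-ZsGreen mice aged 3 to 6 months, in which the reporter marks cells with activity of the *Pax7* gene. Freshly isolated cells (F) went into lysis reagent straight from the sort. The other groups were seeded on plastic coated with Matrigel and fibronectin, in DMEM with 10 ng/mL FGF, fetal bovine serum, horse serum and chicken embryo extract. 2d-U cells stayed uncompressed for 2 days and 5d-U cells for 5 days. 2+3d-C cells stayed uncompressed for 2 days and then spent 3 days under a PDMS film on pillars about 4 μm high, which presses on them from above. The FGF in the medium, a ligand that feeds into the ERK cascade, was thus shared by the 3 cultured groups and not given to F. Between 12540745 reads (2+3d-C replicate 5) and 62424851 reads (2+3d-C replicate 4) were counted on genes per library, and the other 10 libraries had 20329459 to 45003574. Nothing in the labels says which libraries came from the same animals or cultures, so p-values measure the spread between these libraries, which may be technical.

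ERK is switched on by a chain of reactions that runs from growth factor receptors through Ras, Raf and MEK. Many of the genes that ERK turns on then act back on this chain. Sprouty proteins (*Spry1*, *Spry2*, *Spry4*) act between the receptor and Raf, Spred proteins recruit neurofibromin, a Ras GTPase-activating protein, to the membrane, and the Dusp genes code for phosphatases that remove the activating phosphates from MAP kinases. *Dusp6* acts on ERK in the cytoplasm and *Dusp5* on ERK in the nucleus, while the nuclear phosphatases of *Dusp1* and *Dusp4* also act on the stress kinases JNK and p38. In MuSCs, Sprouty1 is known for its part in the return to and the keeping of quiescence. *Spry1* is also 1 of the genes that the study itself used as a quiescence gene on these same libraries, so its values here are not independent of that choice.

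RefSeq promoters (GRCm38.p6, the assembly of mm10) matched 8 of the 10 genes by symbol. Those of the 3 genes that rose most or that carried rare motifs are printed 5′ to 3′ on the strand of the gene, and end at the RefSeq start or where a deposited exon of the gene begins. The *Dusp1* window lies inside the deposited span of that gene, which starts farther upstream. The *Spry1* window is chr3:37639697-37639946 on the plus strand, the *Dusp1* window is chr17:26508520-26508722 on the minus strand, and the *Dusp5* window is chr19:53528895-53529108 on the plus strand. Capitals mark GC boxes (GGGCGG, either strand) in all 3, the cAMP response element (TGACGTCA) in *Dusp1*, which runs on into a GC box without a gap, and a pair of adjoining CArG boxes in *Dusp5*.
Spry1: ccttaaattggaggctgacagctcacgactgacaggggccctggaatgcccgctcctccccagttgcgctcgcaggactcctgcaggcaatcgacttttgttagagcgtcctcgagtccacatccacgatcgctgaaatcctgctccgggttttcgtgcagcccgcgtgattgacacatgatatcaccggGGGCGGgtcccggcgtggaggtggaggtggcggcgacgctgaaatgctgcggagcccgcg
Dusp1: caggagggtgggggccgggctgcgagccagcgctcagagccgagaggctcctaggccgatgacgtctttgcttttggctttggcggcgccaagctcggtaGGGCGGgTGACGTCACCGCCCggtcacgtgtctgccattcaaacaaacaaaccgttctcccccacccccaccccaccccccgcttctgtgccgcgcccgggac
Dusp5: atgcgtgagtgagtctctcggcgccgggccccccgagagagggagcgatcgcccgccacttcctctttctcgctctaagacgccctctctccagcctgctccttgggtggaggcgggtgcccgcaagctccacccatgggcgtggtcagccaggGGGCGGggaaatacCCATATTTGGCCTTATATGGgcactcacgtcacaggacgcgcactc

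Within 250 bases before the start, the cAMP response element was found in 1.62% of 27025 promoters and a CArG box, the motif of serum response factor, in 1.4%. Among the 8 promoters, the former was in *Dusp1* alone, 143 to 136 bases before the start, and the latter in *Dusp5* alone, 82 to 73 and 72 to 63 bases before it. GC boxes were common, in 32.9% of all promoters and in 6 of the 8 (*Spry1*, *Spred1*, *Spred2*, *Spred3*, *Dusp1* and *Dusp5*). The AP-1 motif (TGANTCA, 6.87% of promoters), an ETS motif (CCGGAAGT, 2.93%) and a MyoD E-box (CAGCTG, 12.8%) matched none of the 8, and the RBPJ motif (TGGGAA, 21.5%) matched *Spred2* alone. All were searched on both strands. These are matches of letters in short windows and do not show binding.

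Before the levels of the 10 genes, the libraries themselves differed in ways that move with the groups. Markers of MuSCs and myoblasts were present in every library: the summed CPM (reads scaled to a common library size) of 10 markers was 3152 to 7870 in F, 2625 to 3094 in 2d-U cells, 2551 to 3832 in 5d-U cells and 15882 to 17784 in 2+3d-C, and *Myod1* was the most abundant of the list. In 2+3d-C *Myod1* alone had 4160 to 8463 CPM. Against 5d-U, 7 of the 10 markers were higher in 2+3d-C, *Pax7* and *Myod1* among them, and none was lower. The shares over all tested genes were 9.14% and 13.4%. Against 2d-U, 6 were higher, beside 16% of all tested genes, and *Myod1* was among them while *Pax7* was not called. For each list the gene named as most abundant has the highest mean CPM over the 12 libraries, and it need not rank first in every group. Markers of other cell types of muscle were also found, and most were higher in F and in 2+3d-C than in either uncompressed culture. For 7 endothelial markers, with *Pecam1* the most abundant, the summed CPM was 1060, 1358 and 1640 in F replicates 1, 4 and 5, 6.39, 6.42 and 2.73 in 2d-U replicates 1, 2 and 3, 29.4, 2.09 and 3.86 in 5d-U replicates 1, 2 and 6, and 268, 229.5 and 251 in 2+3d-C replicates 4, 5 and 10. Against 5d-U, 6 of these 7 rose in 2+3d-C, beside 9.14% of all tested genes. In 2+3d-C *Cldn5* had the highest mean of the list (78.5 CPM, beside 36.4 for *Pecam1*). The 5 erythroid markers (most abundant *Hbb-bs*) summed to 160.1 to 673 CPM in F, to 0.105 to 0.391 CPM in the uncompressed cultures, and to 103, 318 and 27.4 CPM in 2+3d-C replicates 4, 5 and 10. All 5 of them rose in 2+3d-C against 5d-U, beside the same 9.14% of all tested genes.

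The marker counts that follow are for 2+3d-C against 5d-U, where 9.14% of all tested genes were higher and 13.4% lower. Of 7 fibroadipogenic markers, with *Dcn* the most abundant, 5 rose. Their summed CPM was 867 to 1065 in 2+3d-C, 75.6 to 108 in 5d-U cells, 74.5 to 155 in 2d-U cells and 2499 to 10058 in F. *Dcn* averaged 3399 CPM in F, while *Col3a1* had the highest mean of the list in each cultured group. Glial markers (3 of 5 rose, most abundant *Mbp*) summed to 183 to 611 CPM in 2+3d-C, 5.86 to 11 in 5d-U cells, 2.17 to 2.62 in 2d-U cells and 430.1 to 736 in F, and mural markers (5 of 7 rose, most abundant *Acta2*) to 436 to 797, 62.6 to 742, 66.8 to 89.4 and 799 to 1089. Of 8 immune markers (most abundant *Lyz2*), none rose in the same comparison and 1 fell, near the 13.4% of all tested genes. It was *Ptprc*, the gene of a surface protein of all leukocytes. *Ptprc* had 3 reads or fewer in 5d-U replicate 2 too, so its fall rests on 5d-U replicates 1 and 6. Both of these carry the reads on silent gene families described below. The sum of these 8 was 7.63 to 79.8 CPM in 2+3d-C, 1.5 to 118 in 5d-U cells, 0.665 to 2.44 in 2d-U cells and 454 to 1041 in F, and *Ptprc* and *Cd3e* had 3 reads or fewer in every 2+3d-C library. Of 7 myofiber markers (most abundant *Acta1*), 2 fell. Their sum was 62.4 to 181 CPM in 2+3d-C, 160 to 2507 in 5d-U cells, 49.2 to 87.2 in 2d-U cells, and 28.5, 2491 and 1442 in F replicates 1, 4 and 5. No marker had 3 reads or fewer in all 12 libraries. In bulk RNA, fewer cells of a type and less RNA per cell cannot be told apart, and the part of these other cells in the levels below was not tested.

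**Figure D1:**
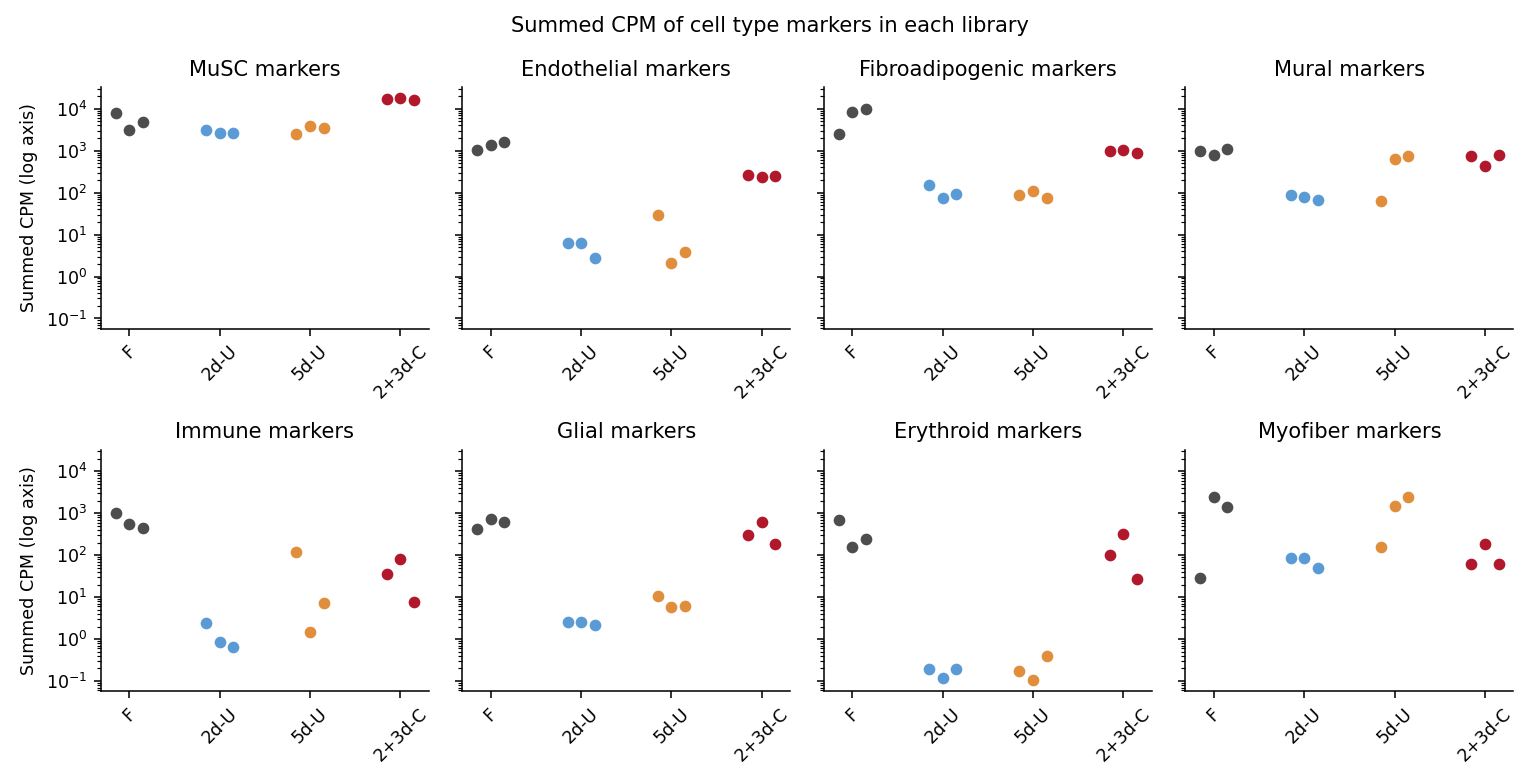
Summed CPM of the marker genes of each cell type (vertical log axis) in the 12 libraries, 1 point per library, by group. Endothelial and erythroid sums of F and 2+3d-C lie above those of 2d-U and 5d-U in every library. The sum of MuSC and myoblast markers, of which *Myod1* is the most abundant, is highest in 2+3d-C (15882 to 17784).

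Reads on gene families that muscle cells keep silent, such as olfactory receptors, taste receptors and hair keratin-associated proteins, set another 4 libraries apart. F replicates 4 and 5 had 5.03 and 7.13 such reads per kb of exon, and 5d-U replicates 1 and 6 had 3.81 and 0.634, while the other 8 libraries had between 0.00936 and 0.220. That density corresponds to at most 0.180 RPKM (CPM per kb of exon, with library sizes scaled by TMM). *Spred3*, at 0.0937 to 0.766 RPKM, was the only 1 of the 10 genes near this level. The lowest value of any other was 0.913 RPKM, for *Spry2* in 2d-U replicate 3. Mitochondrial genes took 5.85% of the reads in 5d-U replicate 1 and 0.0681% to 1.15% in the other 11 libraries, and the part of this in the 5d-U levels was not tested.

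The first question was how the feedback genes of 5-day cultures differ with and without compression. Against 5d-U, 2+3d-C cells had 5 of the 10 genes higher (*Spry1*, *Spry4*, *Spred1*, *Dusp1*, *Dusp5*) and 1 lower (*Dusp4*) at an adjusted p under 0.05, where 9.14% of all tested genes were higher and 13.4% lower. The other 4 (*Spry2*, *Spred2*, *Spred3*, *Dusp6*) were not called. The median log2 fold change was 1.76 over the 10 genes and -1.05 over all tested genes. That background depends on the low-count genes: among the 10816 genes with a mean of 5 CPM or more, 2329 were higher and 2354 lower, and their median was -0.00013. Leaving out 5d-U replicate 6 gave 1338 higher and 1727 lower of 27039, and the median of all tested genes ran from -1.05 to -2.19 (the latter without 2+3d-C replicate 4) when each library was dropped. Without the 4 libraries with reads on silent families, which leaves 1 library in 5d-U and 1 in F that are assumed to vary like the others, only *Spry1* and *Dusp1* stayed called, 2 genes in place of 6. In that setting the calls over all genes fell as well, from 2068 higher and 3042 lower to 421 and 717 of 19286 tested. The log2 fold changes of the 4 genes no longer called were 1.77 for *Spry4*, 3.28 for *Spred1*, 1.94 for *Dusp5* and -2.92 for *Dusp4*.

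**Figure D2:**
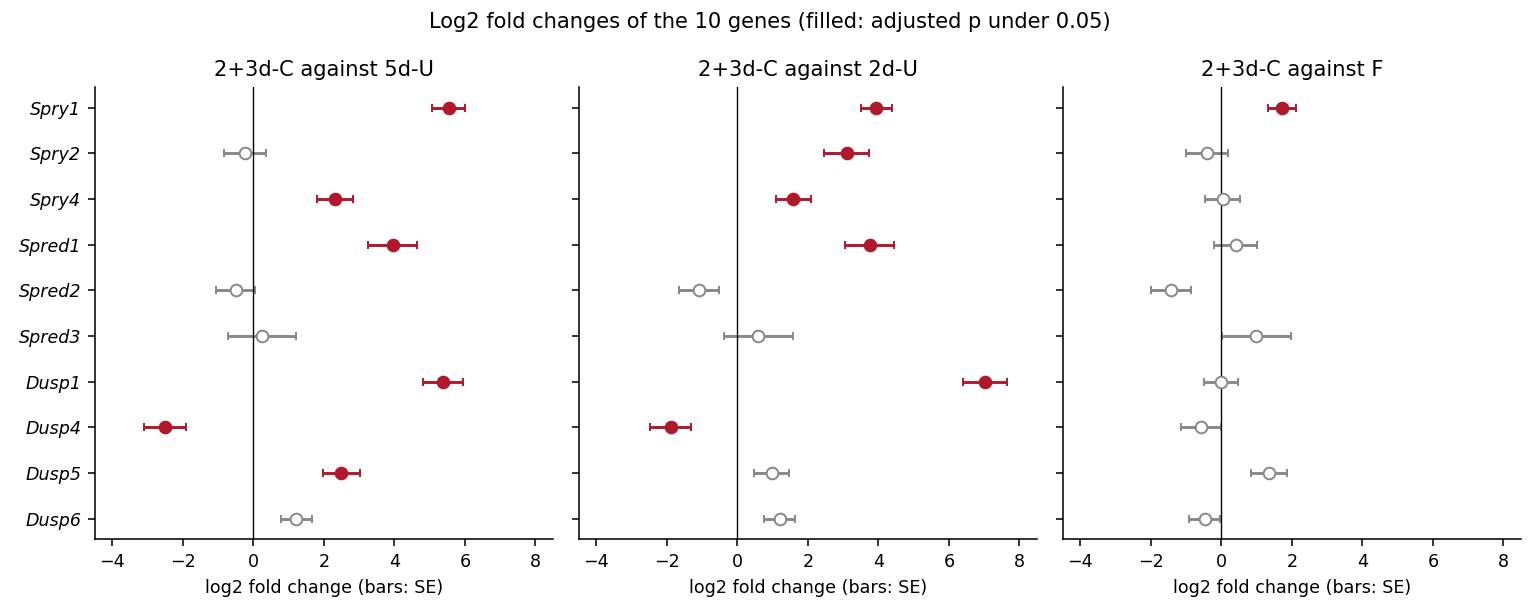
Log2 fold change of each gene (horizontal axis) with its standard error, for 2+3d-C against 5d-U, 2d-U and F. Filled points have an adjusted p under 0.05: 6 genes against 5d-U, 6 against 2d-U and 1 against F.

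*Spry1* had the largest fold change of the 10 against 5d-U in the main test, with *Dusp1* close behind. Their order depends on single libraries: without 5d-U replicate 6 the log2 fold changes were 5.35 for *Spry1* and 6.02 for *Dusp1*. Without 2+3d-C replicate 4 they were 5.41 and 5.55. *Spry1* lies on chromosome 3 (mm10, 37639947 to 37644598, plus strand, ENSMUSG00000037211.12). Its level was 116, 57.5 and 71.0 RPKM in F replicates 1, 4 and 5, 19.1, 17.8 and 15.4 in 2d-U replicates 1, 2 and 3, 7.83, 5.28 and 4.19 in 5d-U replicates 1, 2 and 6, and 311, 277 and 216 in 2+3d-C replicates 4, 5 and 10. The 4 groups did not overlap, and they ran from 5d-U, the lowest, through 2d-U and F to 2+3d-C. Relative to 5d-U the level under compression was 46.4-fold higher (log2 fold change 5.54 ± 0.47, SE, edgeR adjusted p = 6.4e-06), and relative to 2d-U it was 15.4-fold higher (3.94 ± 0.43, adjusted p = 3.08e-05). The lower level of 5d-U than of 2d-U, by 1.59 on the log2 scale, did not pass the test (edgeR adjusted p = 0.0502). *Spry1* was called lower there in 5 of 9 other settings, and in 5 of 12 fits with 1 library dropped. Against F *Spry1* was the only gene of the 10 that was higher in 2+3d-C, by 3.29-fold, and that call was lost without F replicate 4 or F replicate 5 and when TMM was left out. About 24.4% of the exon bases of *Spry1* are shared with *Gm42922* on the opposite strand, and reads were counted without regard to strand. *Gm42922* itself had at most 36 reads in any library, while *Spry1* had 249 to 48126.

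*Spry2*, which codes for another Sprouty protein, did not follow *Spry1*. It lies on chromosome 14 (105891947 to 105896819, minus strand, ENSMUSG00000022114.5). It was at 17.9, 15.3 and 14.4 RPKM in F, 1.86, 1.43 and 0.913 in 2d-U cells, 7.77, 5.95 and 28.7 in 5d-U cells, and 11.3, 10.5 and 14.1 in 2+3d-C. The 5d-U libraries ranged from below to above all of 2+3d-C. The log2 fold change in 2+3d-C against 5d-U was -0.24 ± 0.59 (SE), with a 95% confidence interval from -1.39 to 0.91 and an edgeR adjusted p of 0.764, and without 5d-U replicate 6 its sign turned to 0.80. Against 2d-U both 5-day groups were higher, 2+3d-C by 8.54-fold (3.09 ± 0.63, adjusted p = 0.00304) and 5d-U by 10.1-fold (3.34 ± 0.64, adjusted p = 0.0222). The call for 5d-U was lost without 5d-U replicate 6, without 2d-U replicate 2 or without 2d-U replicate 3.

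*Spry4*, the remaining Sprouty gene, was also higher under compression, over a smaller range. Its values were 11.9, 11.8 and 19.2 RPKM in F, 6.30, 4.42 and 3.89 in 2d-U cells, 2.19, 4.29 and 2.43 in 5d-U cells, and 20.3, 6.53 and 17.0 in 2+3d-C. Every 2+3d-C library lay above every uncompressed one, though replicate 5 only just. Compressed cells had 4.93-fold more than 5d-U (log2 fold change 2.30 ± 0.51, edgeR adjusted p = 0.00531) and 3.01-fold more than 2d-U (1.59 ± 0.50, adjusted p = 0.0314). Leaving out any 1 of 5 of the 6 libraries concerned ended the call against 2d-U, and it was kept in 4 of 9 other settings.

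Composition of the Sprouty family shifted with these levels. *Spry1* made up 87.4% to 94.2% of the summed RPKM of the 3 genes in 2+3d-C, 67.9% to 79.6% in F, 70.0% to 76.3% in 2d-U and 11.9% to 44.0% in 5d-U. In 5d-U the largest part was *Spry2* in 2 of 3 libraries, with 38.3% to 81.3%, beside 3.30% to 5.70% in 2+3d-C. That order depends on the scale: in CPM, without division by length, *Spry2* was the largest in 1 of 3 libraries, with 25.8% to 71.6%. The sum itself was 247 to 342 RPKM in 2+3d-C, 84.6 to 146 in F, 20.2 to 27.2 in 2d-U cells and 15.5 to 35.3 in 5d-U cells. Shares of a sum move together by construction, so a lower share of *Spry2* does not by itself show a lower level of it.

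**Figure D3:**
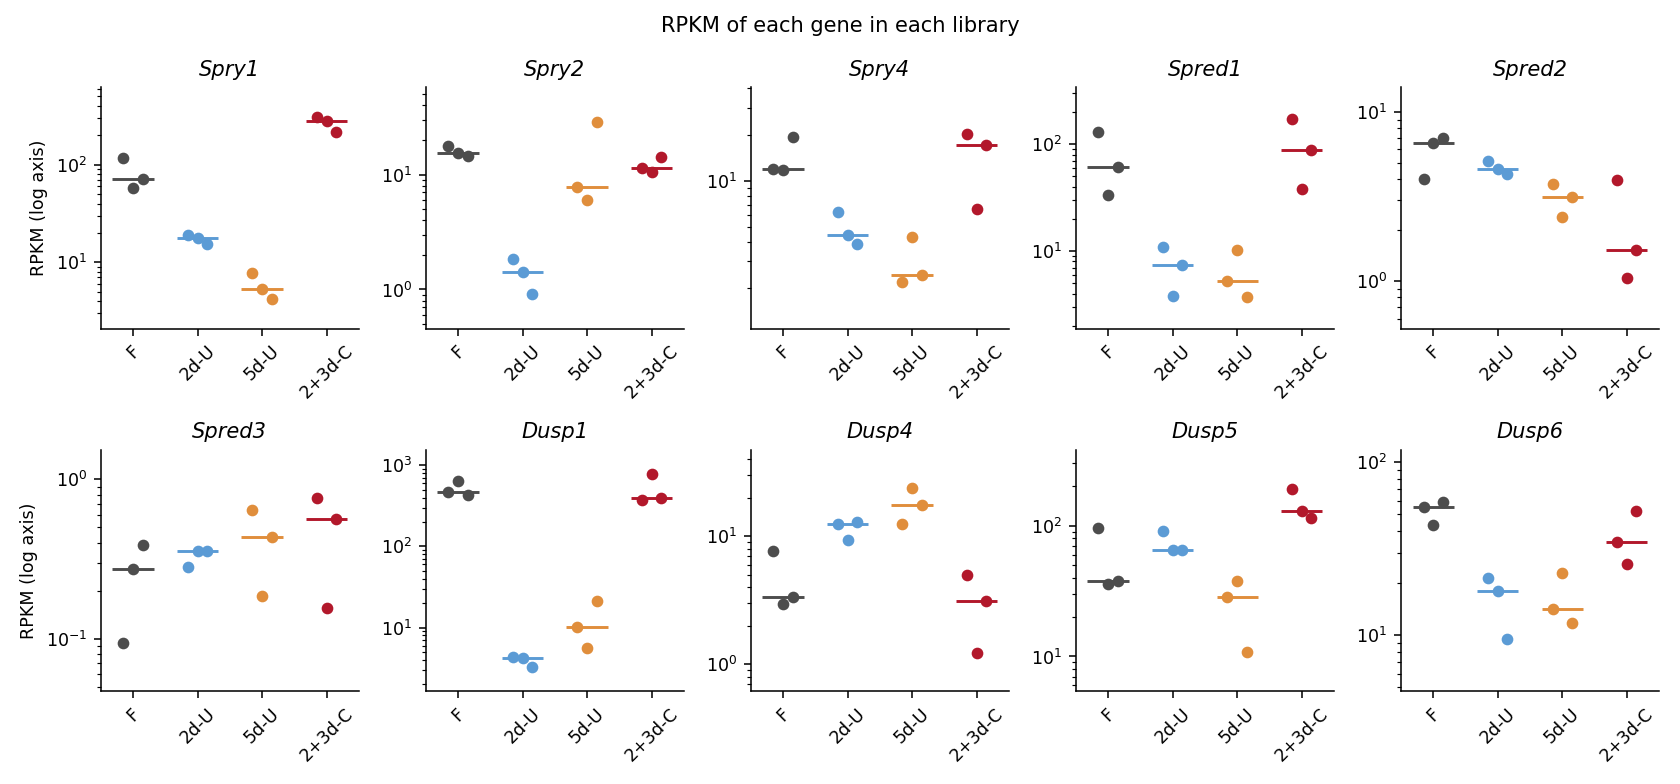
RPKM of each of the 10 genes (vertical log axis, with a range of its own in each panel) in the 12 libraries, 1 point per library, with a bar at the group median. *Spry1*, *Spred1* and *Dusp1* are high in F and 2+3d-C and low in both uncompressed cultures, while *Dusp4* is lowest in F and 2+3d-C.

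Of the Spred genes only *Spred1* was called by the main test. It spans 117121374 to 117182279 of chromosome 2, on the plus strand (ENSMUSG00000027351.14). It measured 129.9, 33.6 and 61.7 RPKM in F, 10.9, 3.81 and 7.40 in 2d-U cells, 5.21, 10.2 and 3.75 in 5d-U cells, and 172, 38.1 and 88.3 in 2+3d-C. Its spread within F and within 2+3d-C was wide, and both groups nevertheless lay above all uncompressed libraries. The rise was 15.5-fold against 5d-U (log2 fold change 3.96 ± 0.70, edgeR adjusted p = 0.0012) and 13.5-fold against 2d-U (3.75 ± 0.69, adjusted p = 0.0014), and the difference from F was 0.40 ± 0.62 (adjusted p = 0.684, 95% confidence interval -0.81 to 1.62). Without 2+3d-C replicate 4, its highest library under compression, the log2 fold changes were 3.29 against 5d-U and 3.09 against 2d-U, both still called. Loss of the human gene causes Legius syndrome, which resembles neurofibromatosis.

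*Spred2* was low throughout, at 4.00, 6.53 and 6.99 RPKM in F, 5.10, 4.57 and 4.32 in 2d-U cells, 3.75, 2.40 and 3.15 in 5d-U cells, and 3.94, 1.05 and 1.53 in 2+3d-C. It passed the test in none of the 6 comparisons of the main analysis. With DESeq2, and without F replicate 1 or 2+3d-C replicate 4, it was called lower in 2+3d-C than in F, where the main value was -1.42 ± 0.57 (edgeR adjusted p = 0.108), and DESeq2 also called it lower in 5d-U than in F. Against 2d-U, dropping 2+3d-C replicate 4 also gave a call, lower with compression, at a log2 fold change of -1.86 (edgeR adjusted p = 0.0434). *Spred3* was called in no comparison either, and stood on 8 to 254 reads per library. *Spred1* accordingly made up 96.9% to 97.7% of the summed RPKM of the Spred genes in 2+3d-C, 83.2% to 96.9% in F, 43.6% to 66.9% in 2d-U and 51.2% to 79.8% in 5d-U.

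*Dusp1*, the phosphatase gene with the cAMP response element printed above, was the most abundant of the 10 in F and in 2+3d-C. It is annotated at 26505590 to 26562128 of chromosome 17, on the minus strand (ENSMUSG00000024190.7). It reached 472, 647 and 430.0 RPKM in F and 375, 774 and 390.1 in 2+3d-C, against 4.39, 4.21 and 3.28 in 2d-U cells and 10.1, 5.63 and 21.2 in 5d-U cells. F and 2+3d-C overlapped fully, and both stood apart from the uncompressed cultures. The level in 2+3d-C was 41.7-fold above 5d-U (log2 fold change 5.38 ± 0.57, edgeR adjusted p = 3e-05) and 129.5-fold above 2d-U (7.02 ± 0.62, adjusted p = 6.93e-06). Without 5d-U replicate 6, the highest of its group, the first of these log2 fold changes was 6.02. Its difference from F was -0.01 ± 0.47, with a 95% confidence interval from -0.93 to 0.92. *Dusp1* is also an immediate-early gene, transcribed within minutes of a stimulus, and the 10 other immediate-early genes that were listed moved the same way.

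*Dusp4*, in contrast, was highest in the uncompressed cultures. It lies on chromosome 8 (34807297 to 34819894, plus strand, ENSMUSG00000031530.6). It was at 7.73, 2.93 and 3.36 RPKM in F, 12.5, 9.28 and 13 in 2d-U cells, 12.4, 23.6 and 17.4 in 5d-U cells, and 4.96, 1.23 and 3.10 in 2+3d-C, and no library of F or 2+3d-C reached the lowest of the others. The level in 2+3d-C was 5.70-fold lower than in 5d-U (log2 fold change -2.51 ± 0.60, edgeR adjusted p = 0.00823) and 3.71-fold lower than in 2d-U (-1.89 ± 0.59, adjusted p = 0.0298). In 5d-U it was 3.80-fold higher than in F (1.93 ± 0.59, adjusted p = 0.0297). The calls against 2d-U and for 5d-U against F each survived the loss of 1 of the 6 libraries concerned and not of the other 5.

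*Dusp5* and *Dusp6* code for the phosphatases that are most specific to ERK. They lie on chromosome 19 (53529109 to 53542431) and chromosome 10 (99263231 to 99267489), both on the plus strand (ENSMUSG00000034765.6 and ENSMUSG00000019960.8). *Dusp5*, with its pair of CArG boxes, was at 96.2, 36.0 and 37.8 RPKM in F, 91.9, 65.1 and 65.5 in 2d-U cells, 28.4, 37.9 and 10.8 in 5d-U cells, and 191, 130.1 and 115 in 2+3d-C, so that every compressed library was above all 9 others. Against 5d-U it was 5.65-fold higher (log2 fold change 2.50 ± 0.53, edgeR adjusted p = 0.0039). Against 2d-U and F the differences of 0.97 ± 0.50 and 1.36 ± 0.51 did not pass the test (edgeR adjusted p = 0.174 and 0.0987). *Dusp5* was called higher than in F without F replicate 1 (1.85, edgeR adjusted p = 0.0408) and with a block for the replicate number. A share of 22.1% of its exon bases overlaps *Gm50394* on the other strand, a gene with at most 19 reads in any library, against at least 548 for *Dusp5*. *Dusp6* was at 55.2, 43.2 and 58.9 RPKM in F, 21.6, 18 and 9.51 in 2d-U cells, 14.1, 22.8 and 11.8 in 5d-U cells, and 34.4, 26.0 and 52.5 in 2+3d-C. Its compressed libraries lay above the uncompressed ones, but the differences of 1.21 ± 0.43 from 5d-U and 1.20 ± 0.43 from 2d-U missed the threshold (edgeR adjusted p = 0.0574 and 0.0566), while DESeq2 called both.

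Within the summed RPKM of the 4 Dusp genes, *Dusp1* held 62.0% to 83.1% in 2+3d-C and 74.8% to 88.7% in F. In 2d-U its share was 3.37% to 4.36%, and *Dusp5* made up 67.4% to 71.8%. The 5d-U libraries were mixed, with 6.26% to 34.6% for *Dusp1*, 17.7% to 43.7% for *Dusp5*, 19.1% to 28.4% for *Dusp4* and 19.3% to 25.3% for *Dusp6*. The sum was 561 to 932 RPKM in 2+3d-C, 530.1 to 729 in F, 91.3 to 130.3 in 2d-U cells and 61.2 to 89.9 in 5d-U cells.

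**Figure D4:**
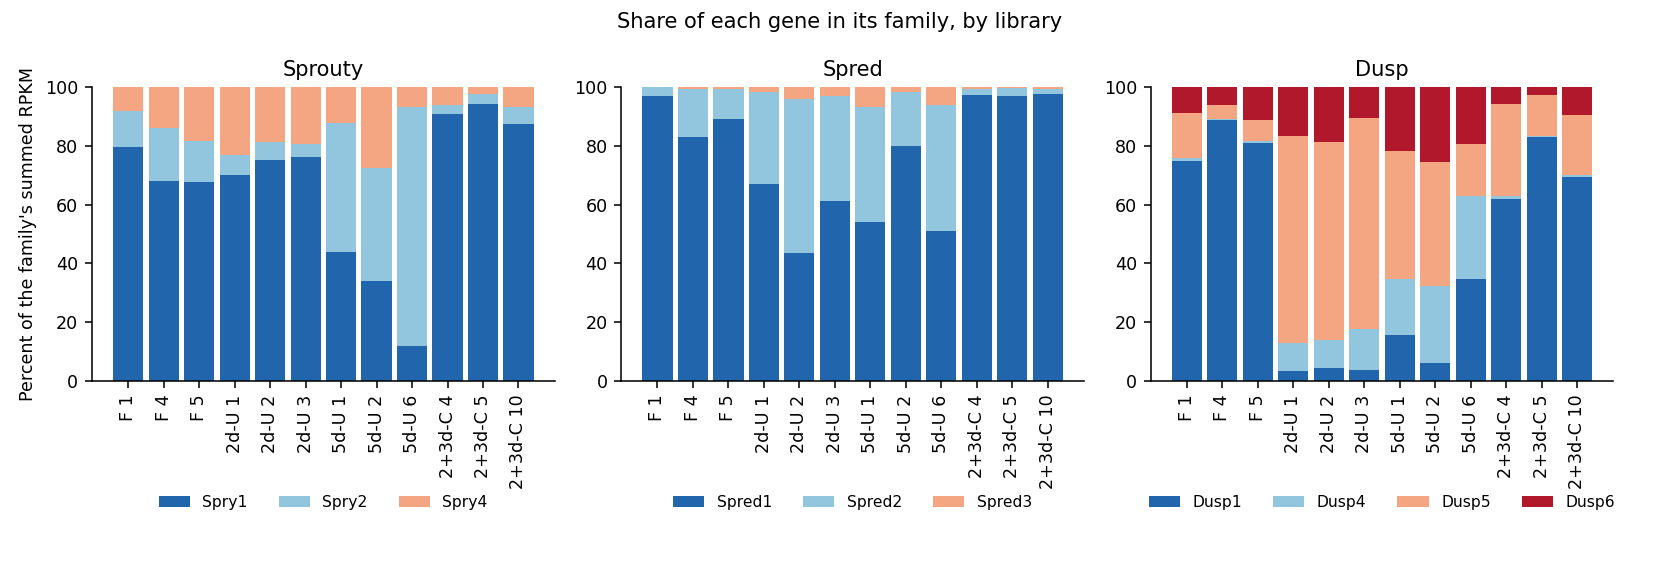
Share of each gene in the summed RPKM of its family (vertical axis, percent) for each of the 12 libraries, in 3 panels for the Sprouty, Spred and Dusp genes. *Spry1*, *Spred1* and *Dusp1* hold most of their family in F and 2+3d-C, and *Dusp5* holds 67.4% to 71.8% in 2d-U.

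Comparison with the culture from which compression started gave a similar picture. Against 2d-U, 2+3d-C had 5 of the 10 higher (*Spry1*, *Spry2*, *Spry4*, *Spred1*, *Dusp1*) and 1 lower (*Dusp4*), where 16% of all tested genes were higher and 8.63% lower. The median was 1.4 over the 10 genes and 0 over all tested genes. This comparison and that against 5d-U share the 2+3d-C libraries. When library sizes were taken without TMM, the split of all called genes turned from 3619 higher and 1954 lower to 2537 higher and 3139 lower. With TMM but without 2d-U replicate 2 it was 2340 and 1421 of 27915, and without 2d-U replicate 3 it was 2391 and 1453 of 27070. Without TMM *Spry4* was not called, and neither *Spry4* nor *Dusp4* was called without the 4 libraries with silent-family reads (where 2090 genes were higher and 1235 lower of 19286) or with the libraries of the 2 groups alone. The call of *Dusp4* was also lost without any 1 of the 2d-U libraries and without 2+3d-C replicate 5 or 10.

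Against F, whose cells had not been cultured, only *Spry1* was called in 2+3d-C (log2 fold change 1.72 ± 0.39, edgeR adjusted p = 0.0254), and none was lower. Of all tested genes 1.94% were higher and 4.47% lower, and the median of the 10 genes was 0.01 beside -0.76 over all tested genes. With library sizes alone the split of all calls moved from 438 higher and 1011 lower to 142 and 1217, and with DESeq2 to 885 and 4431. With edgeR and without F replicate 1 it was 1185 higher and 8878 lower, without F replicate 4 it was 26 and 222, and with any other library left out it lay between 40 and 519 higher and between 265 and 1193 lower. Leaving out the 4 libraries with silent-family reads left none of the 10 called, with a log2 fold change of 1.21 for *Spry1*, and 0 higher and 19 lower of 19286 genes. A missed threshold does not show that the levels of the other 9 were alike, and the 95% confidence interval of *Spry4*, for example, ran from -0.92 to 0.99.

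The next question was how the uncompressed cultures differ from freshly isolated cells. In 2d-U, 6 of the 10 were lower than in F (*Spry1*, *Spry2*, *Spry4*, *Spred1*, *Dusp1*, *Dusp6*) and none was higher, where 33.3% of all tested genes were lower and 10.6% higher. The median was -1.62 over the 10 genes and -1.63 over all tested genes, and -0.21 over genes with a mean of 5 CPM or more, as 9 of the 10 have. Leaving out 1 library gave between 3584 lower genes (without 2d-U replicate 3) and 14107 (without F replicate 1) over all tested genes, and between 1276 (without F replicate 5) and 2773 higher ones (without 2+3d-C replicate 10). *Dusp1* fell by 7.03 on the log2 scale (SE 0.62, edgeR adjusted p = 1.26e-05), *Spry2* by 3.50 (SE 0.65, adjusted p = 0.00141), *Spred1* by 3.35 (SE 0.68, adjusted p = 0.00249) and *Spry1* by 2.23 (SE 0.40, adjusted p = 0.00122). *Dusp6* fell by 1.68, a call lost without 2d-U replicate 3, and *Spry4* by 1.55, a call lost without F replicate 5 or any 1 of the 2d-U libraries. Without the 4 libraries with silent-family reads, *Dusp6* and *Spry4* were no longer called, at log2 fold changes of -1.74 and -1.27, while calls over all genes went from 2395 higher and 7527 lower to 404 and 1291.

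In 5d-U, 5 genes were lower than in F (*Spry1*, *Spry4*, *Spred1*, *Dusp1*, *Dusp6*) and *Dusp4* was higher, beside 8.9% and 11.6% of all tested genes. The median was -1.42 against -0.41 over all tested genes. *Dusp1* fell by 5.39 (SE 0.57, edgeR adjusted p = 6.37e-05) and *Spry1* by 3.82 (SE 0.43, adjusted p = 8.46e-05). Only these 2 stayed called without the 4 libraries with silent-family reads, where calls over all genes fell to 54 higher and 119 lower of 19286. In that setting, with 1 library in each group, the log2 fold changes of the 4 genes no longer called were -3.66 for *Spred1* (-3.55 with all libraries), -1.46 for *Spry4* (-2.27), -1.27 for *Dusp6* (-1.69) and 1.62 for *Dusp4* (1.93). The call of *Dusp6* was also lost without 5d-U replicate 1 or 5d-U replicate 6 alone. DESeq2 turned the split of all called genes from 2629 higher and 2014 lower to 2780 and 3899. With edgeR and without F replicate 1 it was 1712 and 1959, without F replicate 5 it was 1587 and 1445, and without 5d-U replicate 6 it was 1725 and 1303. Between the uncompressed cultures, *Spry2* alone was called by the main test, higher at 5 days, and none was lower. Of all tested genes 1.87% were higher and 0.243% lower. *Spry1* was called lower at 5 days with DESeq2, without TMM and with no filter. The same call came with genes under a mean of 5 CPM dropped and with the 2 groups alone. DESeq2 and no filter also called *Dusp5* lower. In the main test of these cultures the 10 genes had a median of -0.11 and all tested genes 1.13. Library sizes without TMM turned 424 higher and 55 lower genes into 126 and 45. DESeq2 gave 3063 and 395, and no filter 1867 and 199. With silent-family reads subtracted the counts were 90 and 42, and with a model term for those reads 36 and 5. Leaving out 1 library gave 142 (without 2d-U replicate 3) to 1239 higher genes (without 2+3d-C replicate 10) and 11 (without 2d-U replicate 3) to 129 lower ones (without 2+3d-C replicate 5).

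The remaining steps of the pathway are described for 2+3d-C against 5d-U, from receptors to target genes, as counts beside the 9.14% of all tested genes that were higher and the 13.4% lower. These lists were chosen with earlier results of the data known, and genes named beyond the 3 most abundant and the 3 with the smallest p are named only to complete a count and were chosen after their values were seen. Of 6 receptors, *Fgfr1*, *Fgfr4* and *Egfr* were higher and none was lower. *Fgfr1*, a receptor of the FGF in the medium, had 2.13 to 4.95 RPKM in 5d-U, 10.6 to 13.4 in 2d-U cells, 39.7 to 68.7 in F and 51.6 to 258 in 2+3d-C (log2 fold change 5.69 ± 0.63, edgeR adjusted p = 4.1e-05). *Fgfr4*, which MuSCs and myoblasts express, rose by 3.68 ± 0.64 and *Egfr*, the receptor of EGF, by 4.25 ± 0.73.

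Among 22 genes of the Ras-ERK cascade, 6 were higher (*Shc1*, *Frs2*, *Gab1*, *Braf*, *Map2k1*, *Rps6ka3*) and 2 lower (*Hras*, *Nras*). *Gab1*, a docking protein, rose by 4.07 ± 0.73 (edgeR adjusted p = 0.00135) and *Rps6ka3*, which codes for the ERK-activated kinase RSK2, by 3.53 ± 0.53 (adjusted p = 0.000385). *Map2k1*, which codes for MEK1, rose from 28.9 to 61.9 RPKM in 5d-U to 121 to 151 in 2+3d-C (1.69 ± 0.41, adjusted p = 0.00911). The call of *Map2k1* was kept in 6 of 9 other settings and that of *Gab1* in 7 of 9. *Hras* fell by 2.34 (SE 0.46), from 35.0 to 94.4 RPKM to 7.54 to 16.7. *Grb2*, the adaptor that carries Sos to receptors, was not called at 24.2 to 109.6 RPKM in 5d-U and 126 to 199 in 2+3d-C.

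Other inhibitors and phosphatases held both higher and lower genes. Of 10 further inhibitors of the receptor-to-ERK path, 5 were higher (*Il17rd*, *Errfi1*, *Lrig1*, *Nf1*, *Rasa2*) and 1 lower (*Rasa1*). *Errfi1*, a feedback inhibitor of EGF receptors, was at 126 to 174 RPKM in 5d-U, 171 to 204 in 2d-U cells, 601 to 1833 in F and 2213 to 4374 in 2+3d-C (log2 fold change 4.39 ± 0.51, edgeR adjusted p = 5.57e-05), and *Lrig1*, which lowers the amount of receptors, rose by 3.97 ± 0.73. *Rasa1*, a Ras GTPase-activating protein, fell by 2.08 (SE 0.55), a call kept in 7 of 9 other settings. *Pebp1*, which binds Raf, had 119 to 462 RPKM in 5d-U and 62.5 to 173 in 2+3d-C and was not called. Of 6 MAP kinase phosphatases outside the 10 genes, *Dusp8*, *Dusp10* and *Dusp16* were higher and *Dusp2* and *Dusp9* lower. The first 3 act mainly on JNK and p38. *Dusp8* was at 0.643 to 0.867 RPKM in 5d-U and 6.18 to 22.3 in 2+3d-C (4.12 ± 0.57, adjusted p = 0.000219), *Dusp10* rose by 3.00 ± 0.52 and *Dusp16* by 2.51 ± 0.68, the last a call kept in 6 of 9. *Dusp2* fell by 2.05 (SE 0.69, adjusted p = 0.044), from 8.10 to 96.5 RPKM in 5d-U cells to 6.30 to 15.6 in 2+3d-C, a call kept in 4 of 9 alternatives. *Spry3* was not analysed here.

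ERK target genes gave a mixed count too. Of 11 genes whose transcription is known to follow ERK, 4 were higher (*Egr1*, *Fosl1*, *Myc*, *Ier3*) and 2 lower (*Etv4*, *Ccnd1*). *Egr1* had 1.94 to 13.6 RPKM in 5d-U, 7.72 to 20.2 in 2d-U cells, 775 to 1624 in F and 1203 to 2295 in 2+3d-C (log2 fold change 7.74 ± 0.80, edgeR adjusted p = 2.47e-05). *Myc* rose by 4.76 ± 0.58 to 1285 to 2769 RPKM, and *Ier3* by 4.03 ± 0.73. *Ccnd1*, the cyclin D1 gene that drives entry into the cell cycle, fell by 5.54 (SE 0.85, adjusted p = 0.000474), from 55.4 to 239 RPKM to 0.456 to 4.90. It was at 2.00 to 6.94 RPKM in F.

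All 10 immediate-early genes listed rose under compression, against 5d-U and also against 2d-U, where the share over all tested genes was 16%. All 10 were lower in either uncompressed culture than in F. Over all tested genes the share called lower there was 33.3% for 2d-U and 8.9% for 5d-U. Against F, 9 of the 10 immediate-early genes were not called in 2+3d-C and *Ier2* was higher, beside 1.94% of all tested genes. *Fos*, the partner of Jun in AP-1, was at 659 to 942 RPKM in F, 0.450 to 1.41 in 2d-U cells, 1.68 to 6.34 in 5d-U cells and 446 to 740 in 2+3d-C (2+3d-C against 5d-U 7.30 ± 0.67, edgeR adjusted p = 9.83e-06). *Nr4a1*, an orphan nuclear receptor gene, rose by 7.42 ± 0.56, *Zfp36*, which speeds the decay of mRNA, by 7.09 ± 0.64, and *Atf3*, a stress-response factor, by 6.64 ± 0.59. *Junb* rose by 3.86 ± 0.52 and *Ier2* by 4.26 ± 0.51. These genes also respond to the handling of cells. F cells had been dissociated from tissue and sorted, and the device was lifted off 2+3d-C cells before lysis. The part of either step in the levels of *Dusp1*, *Spry1* or the other genes cannot be told apart from the groups.

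**Figure D5:**
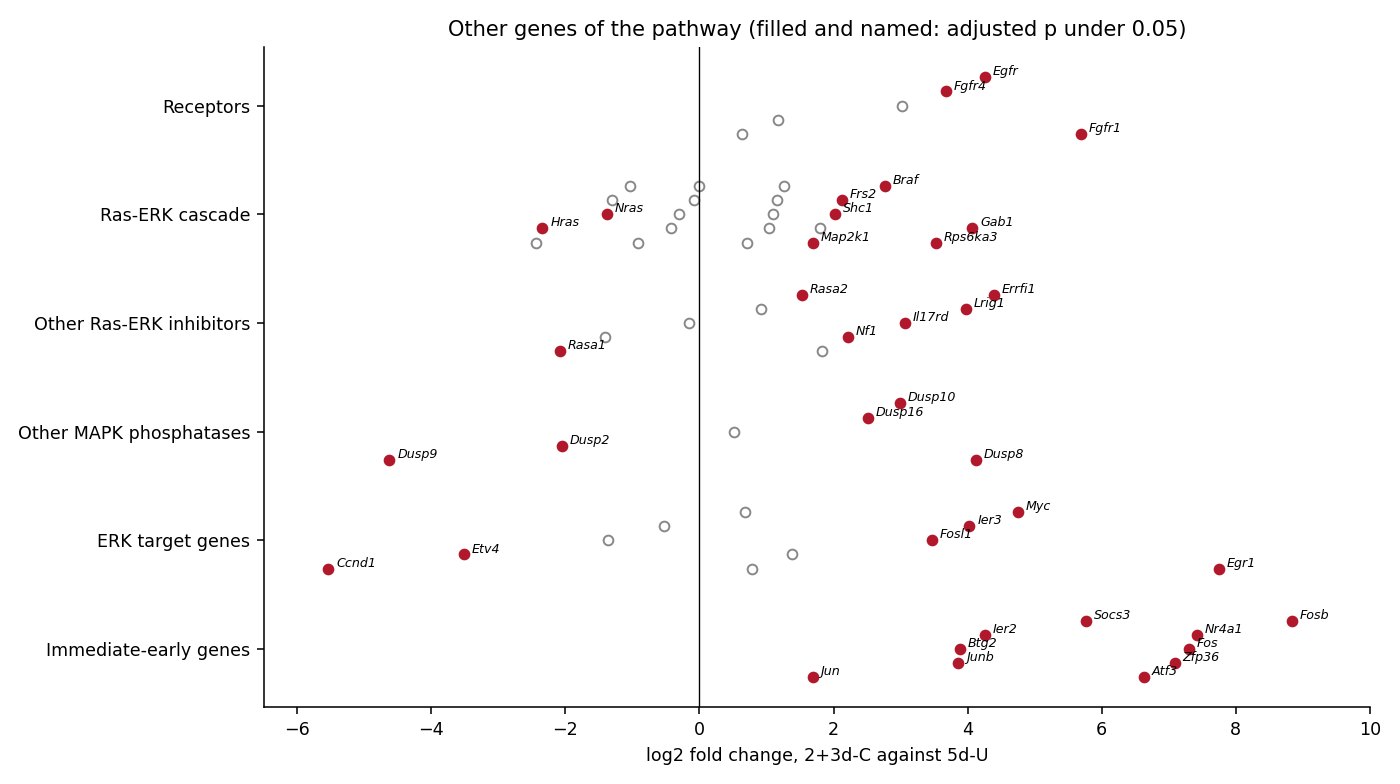
Log2 fold change in 2+3d-C against 5d-U (horizontal axis) of every tested gene of 6 other lists of the pathway. Filled and named points passed an adjusted p of 0.05: all 10 immediate-early genes are higher, while the ERK target genes split into 4 higher and 2 lower.

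Genes whose levels ran most like each of the 10 over the 12 libraries are given as a description, for the 9 that averaged 5 CPM or more and among 10362 candidates. The measure is the root mean square difference of log2 CPM after each gene is centred on its own mean. Nearest to *Spry1* were *Relb*, an NF-κB subunit gene (0.32), and *Vcam1*, an adhesion protein used as a marker of MuSCs (0.44). *Vcam1* had mean levels of 115 RPKM in F, 20.7 in 2d-U cells, 12.2 in 5d-U cells and 280.4 in 2+3d-C. Near to *Spry4* was *Mapkapk2*, the gene of a p38-activated kinase (0.29), and nearest to *Spred1* were *Prkx* (0.41) and *Tsc22d2* (0.42). *Dusp1*, whose own values spread by 3.21, had *H2-T23* near it (0.57). *Dusp4* ran with *Usp1*, a deubiquitinase gene (0.32), whose mean level was 5.73 RPKM under compression, 10.6 in F and 32 and 35.4 after 2 and 5 uncompressed days, and *Mtif3* (0.37). *Spry2* had *Chd1* and *Sat1* nearest, *Spred2* had *Col4a3bp* and *Pias3*, *Dusp5* had *Ltbp1* and *Txnrd3*, and *Dusp6* had *Cds2* and *Sel1l*, at 0.33 to 0.63. Among the 10 genes themselves *Spry4* and *Dusp6* were the closest pair (0.50), followed by *Spry1* and *Spred1* (0.97), and *Dusp1* and *Dusp4* were the farthest apart (4.27).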

How the data were processed

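RNA-seq read counts of 12 libraries were analysed, 3 per group, with groups taken from the labels. The authors amplified cDNA with SMART-seq v4, aligned single-end reads to mm10 and deposited raw counts per gene (featureCounts 1.6.4, exons of GENCODE vM23, no strand), without normalization. In R 4.3.3, edgeR 4.0.16 (filterByExpr, TMM, 1 quasi-likelihood fit of all 12 libraries) tested 6 comparisons two-sided, with Benjamini-Hochberg adjustment over 22635 genes and calls at 0.05. CPM and RPKM were computed with library sizes scaled by TMM, and log2 CPM had 2 counts added as prior. An exact permutation test of 3 libraries against 3 cannot go below p = 0.1 and was not used. Alternatives were DESeq2 1.42.0, other scaling, filters, subsets of libraries and models, and each library left out. The code was tested on simulated data. The 10 genes, the lists and the tests were chosen with earlier results of these data known, and the 4 libraries with silent-family reads were left out together as an alternative chosen after seeing the data. Named were the 10 genes, the 3 most abundant and the 3 of smallest p of each pathway list, the 2 genes most like each of the 10, and the most abundant marker of each cell type. A few genes that this rule names are not reported here.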

Additional observations from a re-analysis of the deposited data

How the results depend on the processing

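Of 60 pairs of gene and comparison, 26 were called, and none of these changed sign in any alternative. Of them, 11 were called in all 9 other settings and 18 whichever 1 of the 12 libraries was dropped, while 14 of the 34 uncalled pairs changed sign somewhere. The number of the 10 genes called went from 6 to 2 in 2+3d-C against 5d-U and from 6 to 2 in 5d-U against F when the 4 libraries with silent-family reads were left out. In 2+3d-C against F it went from 1 to 2 with DESeq2 and to 0 with library sizes without TMM, with the libraries of the 2 groups alone, with a model term for silent-family reads and without the 4 libraries, and leaving out each library gave 0 to 3 (0 without F replicate 4 or 5, 3 without F replicate 1). In 5d-U against 2d-U it went from 1 to 3 with DESeq2 and with no filter, to 2 without TMM, with genes under a mean of 5 CPM dropped and with the 2 groups alone, and to 0 with the model term and without the 4 libraries, with 0 to 2 when each library was left out (0 without 2d-U replicate 2 or 3 or 5d-U replicate 6). Calls over all genes moved as well. In 2+3d-C against F they went from 438 higher and 1011 lower to 125 and 1400 of 16696 with the 2 groups alone. With the model term they were 23 and 182. In 5d-U against 2d-U they went from 424 and 55 to 479 and 289 of 14548 with the 2 groups alone. Among genes with a mean of 5 CPM or more they were 249 and 62 of 10816. Why these counts moved was not tested.

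Deviations from the group means did not run together in libraries of the same replicate number, where the correlations ran from -0.424 to 0.0322. The highest correlation, 0.48, was between F replicate 5 and 5d-U replicate 1, which both carry silent-family reads. The study reports that each batch of sorted cells was spread at random over its conditions. These few correlations cannot show whether libraries share a sort. A block for the replicate number leaves 2 residual degrees of freedom. As 2+3d-C and 5d-U share no replicate number, their difference under the block is estimated only by way of other groups. With the block, 4 genes in place of 6 were called in 2+3d-C against 5d-U. *Spry4* and *Dusp4* were not, at adjusted p = 0.402 and 0.557 by edgeR. There were 4 in place of 6 in 2d-U against F, and 3 in 2+3d-C against 2d-U, where *Spry2*, *Spry4* and *Dusp4* were lost. There were 2 in 2+3d-C against F, 0 in 5d-U against 2d-U and 3 in 5d-U against F. Over all genes the block gave 728 higher and 3098 lower in 2+3d-C against 5d-U, and 588 and 2151 in 2d-U against F. In 2+3d-C it gave 1090 and 836 against 2d-U and 270 and 1690 against F. In 5d-U it gave 642 and 33 against 2d-U and 432 and 829 against F. Under the block the uncalled differences turned to 0.75 for *Spry2* (2+3d-C against 5d-U) and 0.032 for *Dusp1* (2+3d-C against F), and the called one of *Dusp2* to 0.18 (2+3d-C against 5d-U).

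*Spry2* also turned to 0.049 with no filter, 0.23 with the model term and 1.01 without the 4 libraries, and ran from -0.62 to 0.80 with each library left out. *Dusp1* against F turned to 0.034, 0.49 and 0.13 in the same settings and ran from -0.42 to 0.19. With CPM in place of RPKM the mean share of the Sprouty sum moved to 66.4% for *Spry1* in 2d-U, to 10.1% and 3.73% for *Spry2* in F and 2d-U, and to 21.0%, 29.9% and 8.01% for *Spry4* in F, 2d-U and 2+3d-C. In 5d-U, where libraries spread most, it moved from 15.6% to 25.7% for *Spry4* and from 54.4% to 43.4% for *Spry2*. Without TMM the median of all tested genes moved from -1.05 to -1.21 in 2+3d-C against 5d-U, from -0.76 to -1.24 against F, from 1.13 to 0.65 in 5d-U against 2d-U and from -0.41 to -0.70 in 5d-U against F. Among genes with a mean of 5 CPM or more the same medians were -0.00013, -0.07, 0.34 and -0.07. Depth limits *Spred3*, which had as few as 8 reads.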
